A study of Mus musculus with 6 samples.

Results

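Rab GTPases are small membrane-bound switches that give each compartment of the secretory and endocytic routes its identity. A nucleotide exchange factor loads a Rab with GTP on its membrane, the GTP-bound form recruits effectors such as tethers and motors, and a GTPase-activating protein of the TBC family returns it to the GDP-bound form, which GDI extracts from the membrane. In macrophages this cycle times the passage of phagosomes from early endosome to lysosome, the recycling of receptors to the surface and the release of secreted proteins. Rab genes were taken here as the protein-coding genes outside chromosome 15 whose symbol starts with Rab and a digit and whose normalized read count averaged at least 20 over 6 libraries, leaving out names that start with Rab3gap, Rab3il, Rab11fip and Rab44. The rule found 44 of the 21047 genes in the table, and no gene on chromosome 15 was lost to it. Of the 44 genes, 42 encode Rab GTPases, while Rab3ip (Rabin8, an exchange factor for Rab8) and Rab5if share only the name.

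The libraries came from iBMDM, an immortalised line of mouse bone-marrow-derived macrophages, in 2 groups of 3. The WT group had the wild-type genotype, and the A20KO group was a line made deficient in A20 (gene Tnfaip3), a ubiquitin-modifying enzyme known as a brake on NF-kB. No treatment is named for either group. The labels do not say how the A20KO line was made or whether it is 1 clone, so genotype and clone cannot be told apart, and they do not say whether libraries of a group came from separate cultures, so the spread behind the p-values is that of these libraries alone and may be technical.

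Total reads were between 13308840 and 15130697 per library. Tnfaip3 stood at 389, 382 and 437 normalized reads in WT and at 194, 196 and 189 in A20KO, a log2 difference of -1.06 (SE 0.101, adjusted p = 7.1e-14). All 8 macrophage markers were in the table, with summed levels of 23720 to 24385 normalized reads in WT and 22161 to 22480.5 in A20KO, although Mertk was at 0 in every WT library. Within this sum single markers moved in opposite directions: Csf1r and Fcgr1 rose by 1.10 and 2.58 on the log2 scale and Mertk also rose, while Lyz2, Itgam, Spi1 and Cd68 fell by 0.57, 0.77, 0.45 and 0.15, and Adgre1 did not pass (adjusted p = 0.93). Summed markers of fibroblasts (2 of 5 in the table), lymphocytes (1 of 5) and epithelial and endothelial cells (3 of 5) stayed at or below 8.78 normalized reads in every library. Granulocyte and mast cell markers (4 of 5) summed to 102 to 138 in WT and 36.2 to 56.7 in A20KO, with Cpa3 at 0 in WT and Mpo and Elane at 0 in A20KO. Nearly all of that sum was the single gene S100a8, with means of 112 in WT and 42.6 in A20KO. Dendritic cell markers (3 of 4) summed to 35.9 to 42.9 in WT and 72.5 to 84.9 in A20KO, with Flt3 at 0 in WT. Most of that sum was the single gene Zbtb46, with means of 34.8 in WT and 75.2 in A20KO, while Xcr1 was at 4.40 and 3.65. The part of these marker shifts in the Rab results was not tested. In bulk samples fewer cells of a type and less RNA per cell cannot be told apart.

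Of the measured values, the level over all 6 libraries entered the choice of genes, and the values nearest to the threshold are given as a description. The lowest genes inside it were Rab43 (mean 24.96 normalized reads), Rab15 (25.9) and Rab2b (28.2), and the highest outside it were Rab25 (9.35) and Rab4b (6.005). Rab15 passed only through its A20KO libraries, since its WT mean was 7.23, so a difference between genotypes was built into its choice. In all, 7 Rab GTPase genes of the table fell below the level: Rab25, Rab4b, Rab37, Rab30, Rab33a, Rab26 and Rab39b.

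Among the 42 Rab GTPases, 9 rose in A20KO, 15 fell and 18 did not pass the test (limma on log2 of the normalized read count plus 1, Benjamini-Hochberg adjusted p under 0.05 over 17376 genes). Over all genes tested the shares past the threshold were 39.8% in either direction, 20.3% higher and 19.6% lower, and among the 11431 genes with a mean of at least 20 they were 54.1%, 26.6% and 27.5%. The Rab share of 57.1% thus lay near that of genes at like levels. Values of the 2 genotypes did not overlap for 27 of the 42, or 64.3%, beside 46.9% of all genes tested and 60.1% of those with a mean of at least 20. Their median log2 difference was -0.06, and the median without sign was 0.23, the same as that of the 11431 genes. Without Rab15, 8 rose, 15 fell and the median was -0.09. Of the 42, Rab15 rose and Rab39 fell by at least 2-fold, while 9.27% of all genes tested, and 7.81% of those with a mean of at least 20, moved that far in either direction.

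The places of action differed in their counts. Of 7 late secretory and exocytic Rabs 5 fell and none rose, of 12 Rabs of the early secretory route and Golgi 3 rose and 5 fell, and of 9 Rabs of early endosomes and phagosomes 2 rose and 3 fell. Of 5 recycling endosome Rabs 3 rose, Rab15 among them, and 1 fell. Of 5 Rabs of late endosomes, lysosomes and lysosome-related organelles 1 fell and 4 did not pass. Of 4 Rabs of other or unsettled place 1 rose. Beside these counts, 20.3% of all genes tested rose and 19.6% fell. Among genes with a mean of at least 20 the shares were 26.6% and 27.5%. Of the 5 exocytic Rabs that fell, Rab3a lost its call in 9 of 18 alternative analyses and Rab8b in 1. These are counts of few genes, and no difference between the places was tested.

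**Figure D1:**
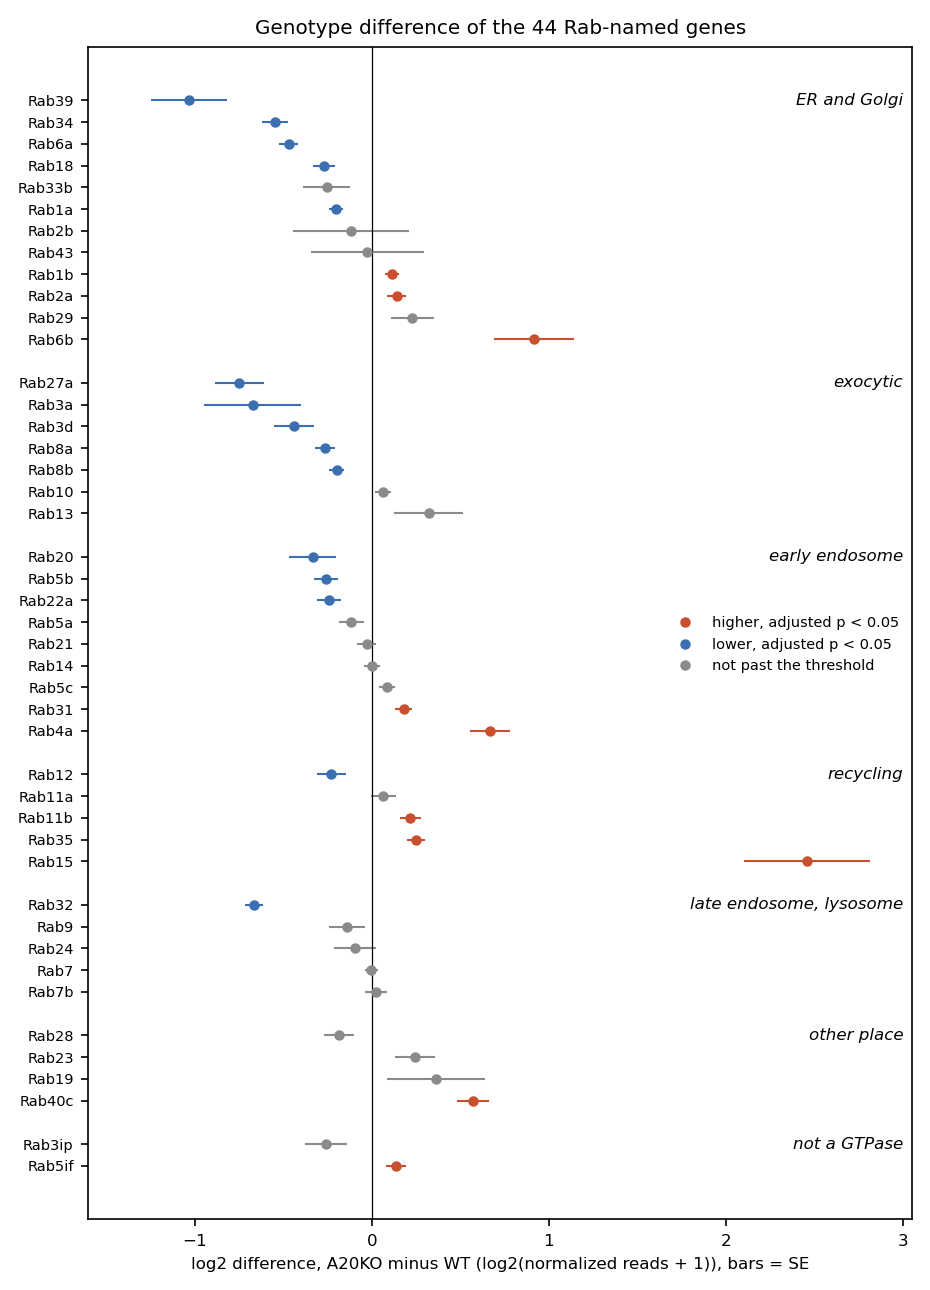
Log2 difference between A20KO and WT (A20KO minus WT, on log2 of the normalized read count plus 1) for each of the 44 Rab-named genes, grouped by place of action, with points coloured by the test (red higher, blue lower, grey not past the threshold) and bars of 1 SE. Rab15 stands farthest to the right at 2.46 and Rab39 farthest to the left at -1.03, and all 5 secretory Rabs past the threshold lie to the left of 0. Of these 5, Rab3a lost its call in 9 of 18 alternative analyses and Rab8b in 1.

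Of the 42 Rab GTPases, 38 had a promoter in RefSeq (GRCm38.p6, windows from 250 bases before to 50 after an annotated start, 50 windows in all). The windows shown are those of the Rab with the greatest rise (Rab15), the Rab with the greatest fall (Rab39), the Rab with the smallest adjusted p (Rab32) and the Rab6 pair that moved in opposite directions. Capitals mark the letters of a searched motif, read on either strand. The GC box was searched as GGGCGG, the box named for its own letters as CCAAT, and the AP-1 site as TGANTCA. The PU.1 site of myeloid cells was searched as GAGGAAGT and the E-box as CACGTG, and a consensus of the NF-kB site was searched as well. All sequences read 5′ to 3′ on the gene's own strand.
Rab15, the window nearest to the gene's annotated 5′ end, minus strand, chr12:76822475-76822774: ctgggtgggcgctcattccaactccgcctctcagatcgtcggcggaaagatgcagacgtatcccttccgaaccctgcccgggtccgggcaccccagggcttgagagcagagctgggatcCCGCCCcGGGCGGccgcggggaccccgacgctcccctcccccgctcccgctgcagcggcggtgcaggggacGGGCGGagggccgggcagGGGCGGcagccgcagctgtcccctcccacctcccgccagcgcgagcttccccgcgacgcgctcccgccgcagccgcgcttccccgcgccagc
Rab15, the window with motif letters among the 3 inside the gene, minus strand, chr12:76818325-76818624: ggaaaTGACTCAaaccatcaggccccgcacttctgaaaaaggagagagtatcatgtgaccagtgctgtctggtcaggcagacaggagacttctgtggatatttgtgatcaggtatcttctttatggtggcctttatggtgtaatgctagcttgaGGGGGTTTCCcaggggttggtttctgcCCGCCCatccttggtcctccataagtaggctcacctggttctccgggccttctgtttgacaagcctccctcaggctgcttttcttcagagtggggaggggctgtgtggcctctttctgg
Rab39, minus strand, chr9:53706183-53706482: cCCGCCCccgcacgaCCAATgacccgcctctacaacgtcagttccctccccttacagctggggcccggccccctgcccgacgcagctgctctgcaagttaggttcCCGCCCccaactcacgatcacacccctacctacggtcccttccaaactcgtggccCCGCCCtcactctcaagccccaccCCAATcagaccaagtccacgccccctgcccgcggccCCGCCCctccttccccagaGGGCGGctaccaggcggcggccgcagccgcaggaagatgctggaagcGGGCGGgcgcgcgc
Rab32, minus strand, chr10:10558158-10558457: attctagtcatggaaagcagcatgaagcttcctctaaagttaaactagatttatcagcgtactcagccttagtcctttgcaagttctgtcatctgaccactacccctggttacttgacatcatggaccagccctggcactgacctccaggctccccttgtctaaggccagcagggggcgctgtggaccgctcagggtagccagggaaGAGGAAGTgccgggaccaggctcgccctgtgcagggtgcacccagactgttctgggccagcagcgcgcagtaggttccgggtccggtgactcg
Rab6a, plus strand, chr7:100607336-100607635: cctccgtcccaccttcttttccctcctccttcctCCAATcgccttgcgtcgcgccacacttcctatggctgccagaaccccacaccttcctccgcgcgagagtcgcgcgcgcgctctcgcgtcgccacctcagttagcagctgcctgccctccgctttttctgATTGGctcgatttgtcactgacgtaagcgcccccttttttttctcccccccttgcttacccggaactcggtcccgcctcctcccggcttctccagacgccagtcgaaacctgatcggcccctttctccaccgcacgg
Rab6b, plus strand, chr9:103111824-103112123: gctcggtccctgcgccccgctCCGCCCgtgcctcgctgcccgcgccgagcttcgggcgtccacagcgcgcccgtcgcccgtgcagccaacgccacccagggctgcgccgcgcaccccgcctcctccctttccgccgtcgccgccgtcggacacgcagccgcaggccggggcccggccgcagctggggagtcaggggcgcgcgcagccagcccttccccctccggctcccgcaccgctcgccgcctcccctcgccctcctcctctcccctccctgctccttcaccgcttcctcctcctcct

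The first Rab15 window and those of Rab39 and Rab6b were rich in G and C (76.3%, 70.7% and 78.7%), with 38, 27 and 42 CpG dinucleotides, while the Rab32 window held 10 CpG and 57.3% G and C. The GC box was in 70% of the 50 Rab windows, beside 35.7% of all 32851 promoters of the table and 46.2% of the protein-coding ones. The median G and C content was 63% in the Rab windows, beside 52.7% and 56.3%. The CCAAT box was in 42% of Rab windows and 37.4% of all promoters, and the E-box in 12% and 7.15%. The NF-kB letters were in 6% of Rab windows (3 windows, of Rab15, Rab28 and Rab9) and 1.63% of all promoters, the AP-1 letters in 4% and 7.81%, and the PU.1 letters in 4% (Rab2b and Rab32) and 3.20%. A match describes letters and is not a binding site. Rab15 has 4 windows in the table, and all 4 lie within the annotated bounds of the gene, including the one nearest to its 5′ end. The 2 not shown held none of the searched letters, and the read counts per gene do not tell which start was used.

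Rab32 fell with the smallest adjusted p of the Rab genes. It acts on melanosomes and other lysosome-related organelles and, in macrophages, on phagosomes. Rab32 (chr10:10545002-10558265, minus strand, mm10) stood at 1933, 1979 and 1977 normalized reads in WT and at 1263, 1196 and 1259 in A20KO. Every A20KO library lay well below every WT library. The means were 1963 ± 25.7 and 1239 ± 37.5 (SD, n = 3 each), 0.631 times the WT level (log2 difference -0.66, SE 0.0499, adjusted p = 4.2e-18).

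The other Rabs of late endosomes and lysosomes did not pass the test. Rab7, which drives fusion of late endosomes with lysosomes, was the highest Rab of this place per kilobase. Its levels (chr6:87999106-88045270, minus strand) were 4309, 4234 and 4031 normalized reads in WT and 4158, 4273 and 4122 in A20KO. The genotypes overlapped, with means of 4192 ± 144 and 4185 ± 78.9 (SD, n = 3 each), an adjusted p of 0.98 and a 95% interval of the log2 difference from -0.08 to 0.07. Rab7b, which acts between late endosomes and the Golgi, had means of 854 ± 16.0 and 870.2 ± 25.8, with an interval from -0.10 to 0.15. Rab9, which returns mannose 6-phosphate receptors from late endosomes to the Golgi, and Rab24, a Rab of autophagy, had log2 differences of -0.14 (adjusted p = 0.29) and -0.09 (adjusted p = 0.57). Of the 31-base words of Rab7, 18.4% also occurred in other genes, most of them in the pseudogene Rab7-ps1 (log2 difference 0.28, adjusted p = 0.17). The Rab24 exons shared 62.4% of their bases with Prelid1 on the opposite strand. Prelid1 had means of 4499 in WT and 4290 in A20KO (log2 difference -0.07, adjusted p = 0.15), beside 212 and 198 for Rab24. With no strand setting given, reads of Rab24 and Prelid1 cannot be told apart, so the Rab24 values are uncertain.

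Among the secretory Rabs the falls included the Rabs of regulated exocytosis. Rab27a, which docks secretory lysosomes and exosome-bearing endosomes at the plasma membrane, stood at 199, 186 and 180.4 normalized reads in WT and at 111, 98.8 and 127 in A20KO. The highest A20KO value lay below the lowest WT value, and the log2 difference was -0.75 (SE 0.138, adjusted p = 7.4e-06). Rab3d, a Rab of secretory granules, stood at 272, 259 and 253 in WT and at 219, 182 and 179 in A20KO, again without overlap (log2 difference -0.44, adjusted p = 0.001). Rab3a, best known from synaptic vesicles, was low: 45.6, 39.1 and 39.9 against 26.3, 30.3 and 21.0 (log2 difference -0.67, adjusted p = 0.045). Its call rested on single libraries, since the adjusted p was 0.13, 0.071 and 0.072 without WT replicates 1, 2 and 3 and 0.072 and 0.16 without A20KO replicates 1 and 3. With the replicate number as a block it was 0.054, and in DESeq2 0.14.

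Rab8b and Rab8a, which carry cargo from the Golgi and recycling endosomes to the plasma membrane, both fell. Rab8b, the highest exocytic Rab per kilobase (chr9:66843664-66919687, minus strand), stood at 3479, 3285 and 3171 normalized reads in WT and at 2875, 2892 and 2889 in A20KO. The A20KO libraries lay close together and below every WT library. The means were 3312 ± 155 and 2885 ± 9.07 (SD, n = 3 each; log2 difference -0.20, SE 0.0416, adjusted p = 6.7e-05). Rab8a was at 1318, 1407 and 1298 in WT and at 1132, 1153 and 1063 in A20KO (log2 difference -0.26, adjusted p = 5.6e-05). Rab10, which acts beside Rab8 and brings Toll-like receptor 4 to the macrophage surface, did not pass (log2 difference 0.07, adjusted p = 0.27), although its genotypes did not overlap. Rab13, a Rab of cell junctions, had a log2 difference of 0.32 (adjusted p = 0.2) with overlapping genotypes; without WT replicate 2 its adjusted p was 0.036.

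**Figure D2:**
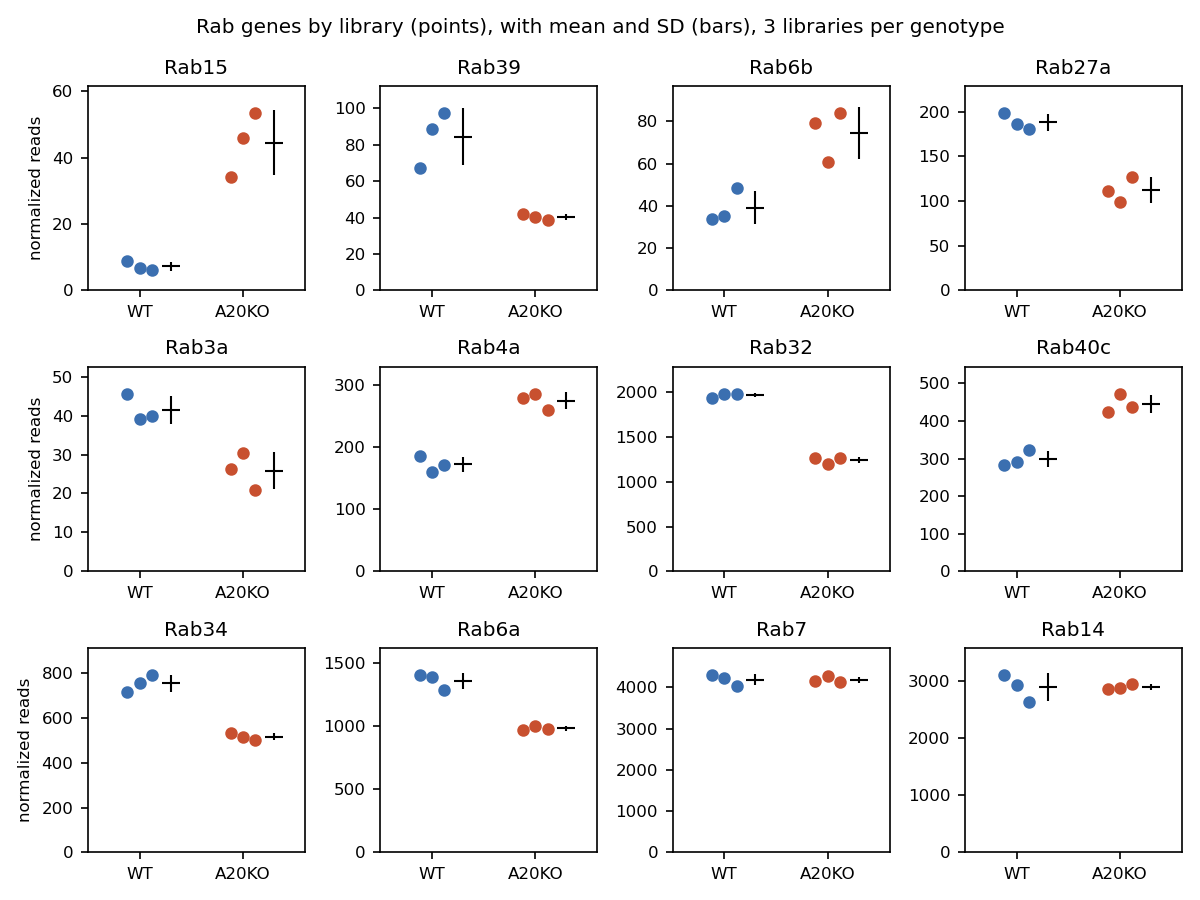
Normalized read count of 12 Rab genes in each of the 3 WT (blue) and 3 A20KO (red) libraries, one panel per gene on its own axis from 0, with crosses and bars beside the points for the mean and SD. Rab32, Rab6a, Rab39, Rab34, Rab3a and Rab27a lie lower in every A20KO library and Rab15, Rab6b, Rab4a and Rab40c higher, while the values of Rab7 and Rab14 overlap.

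The recycling Rabs held the greatest rise, that of Rab15, which met the level of the rule only through its A20KO libraries. A difference between genotypes was thus built into its choice. Rab15, which slows traffic through early and recycling endosomes and is known mainly from neurons, stood at 8.74, 6.67 and 6.29 normalized reads in WT and at 34.1, 46.0 and 53.6 in A20KO (chr12:76797960-76822908, minus strand). All A20KO values were several times the WT values, at a low level in both genotypes. The means were 7.23 ± 1.31 and 44.6 ± 9.79 (SD, n = 3 each), a ratio of 6.16, with a log2 difference of 2.46 (SE 0.358, adjusted p = 3.6e-08). Per kilobase Rab15 was 1.57 in WT and 9.66 in A20KO, the second lowest mean of the 42.

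Rab35, a Rab of fast recycling and of the phagocytic cup, was the highest recycling Rab per kilobase (chr5:115631908-115647736, plus strand). It stood at 1304, 1288 and 1325 in WT and at 1470.3, 1605 and 1583 in A20KO, without overlap. The means were 1306 ± 18.4 and 1553 ± 72.3 (SD, n = 3 each; log2 difference 0.25, SE 0.052, adjusted p = 5.8e-05). Rab11b rose by 0.22 (adjusted p = 0.0014), while its paralog Rab11a, the Rab of the slow recycling endosome, had a log2 difference of 0.06 (adjusted p = 0.52, 95% interval -0.08 to 0.21). Of the words of Rab11b 15.4% occurred in other genes, most of them in the pseudogene Rab11b-ps2 (log2 difference 0.11, adjusted p = 0.59). Rab12, which sends transferrin receptor from recycling endosomes to lysosomes, fell by 0.23 on the log2 scale (adjusted p = 0.017), but did not pass once WT replicate 1 (0.067) or 3 (0.1) was left out, in DESeq2 (0.058) or without the variance trend (0.088).

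On early endosomes and phagosomes Rab5c had the highest level per kilobase, with a mean of 1344 over all libraries, beside 172 for Rab5b and 120 for Rab5a. Rab5c, the main Rab5 form here per kilobase (chr11:100715009-100738215, minus strand), stood at 2679, 2912 and 2992 in WT and at 3182, 3061 and 2872 in A20KO. The genotypes overlapped, with means of 2861 ± 163 and 3038 ± 156 (SD, n = 3 each), a log2 difference of 0.09 (SE 0.0442, adjusted p = 0.12) and a 95% interval up to 0.18. Without WT replicate 3 or A20KO replicate 3 the adjusted p was 0.029 and 0.026. Rab5b fell by 0.26 on the log2 scale (adjusted p = 0.0012), and Rab5a had a log2 difference of -0.12 without overlap (adjusted p = 0.2). Of the words of Rab5b, 11.8% occurred in Gm13991 (log2 difference 0.27, adjusted p = 0.53).

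Rab4a, which returns receptors from early endosomes straight to the surface, rose. It stood at 185, 161 and 172 normalized reads in WT and at 279, 287 and 259 in A20KO, without overlap (log2 difference 0.67, SE 0.114, adjusted p = 1.3e-06). Its paralog Rab4b, below the level of the rule, was at 9.71, 6.67 and 10.5 in WT and at 0.976, 2.93 and 5.25 in A20KO (log2 difference -1.43, adjusted p = 0.045). Rab31 and Rab22a, close relatives that act between early endosomes and the Golgi, moved in opposite directions. Rab31 went from 1751, 1640.4 and 1735 to 2002, 1895 and 1909.9 (log2 difference 0.18, adjusted p = 0.0016), and Rab22a from 781, 775 and 702 to 640.0, 677 and 595 (log2 difference -0.24, adjusted p = 0.0035). Neither pair of groups overlapped.

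Rab20, a Rab of early phagosomes and macropinosomes, had a log2 difference of -0.33 (adjusted p = 0.037) with overlapping genotypes at 163, 209 and 221 in WT and 137, 156 and 176 in A20KO. Its call ended without WT replicate 2 (0.14) or 3 (0.19) and without A20KO replicate 1 (0.21) or 2 (0.078), and also in DESeq2 (0.12) and without the variance trend (0.19). The exons of Rab20 shared 25.6% of their bases with E230013L22Rik on the opposite strand (log2 difference -1.07, adjusted p = 0.1), and without a stated use of strand the reads of such pairs cannot be told apart. Rab14, which acts between the Golgi, endosomes and phagosomes, had equal means of 2893 ± 237 and 2893 ± 44.5 (SD, n = 3 each; 95% interval of the log2 difference -0.09 to 0.09). Rab21, which carries integrins, had a log2 difference of -0.03 (95% interval -0.14 to 0.08).

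In the early secretory route the Rab1 pair stayed the highest. Rab1b, which with Rab1a directs traffic from the endoplasmic reticulum to the Golgi, was the highest Rab of all per kilobase (chr19:5099207-5106996, minus strand). It stood at 3057, 3026 and 3247 in WT and at 3299, 3433 and 3359.7 in A20KO, a small shift without overlap. The means were 3110.2 ± 119 and 3364 ± 67.4 (SD, n = 3 each; log2 difference 0.11, SE 0.041, adjusted p = 0.021), and the call ended without WT replicate 1 (0.07) or 2 (0.12) or A20KO replicate 2 (0.11). In limma with no variance trend the adjusted p was 0.19. Rab1a fell, from 3717, 3834 and 3546 to 3244, 3147 and 3246 (log2 difference -0.20, adjusted p = 2.6e-05). Rab2a, a Rab of the Golgi and of lysosome fusion, had a log2 difference of 0.14 (adjusted p = 0.023), but did not pass once WT replicate 2 (0.079) or 3 (0.1) or A20KO replicate 1 (0.069) or 2 (0.062) was left out, or without the variance trend (0.13). Rab18, a Rab of the endoplasmic reticulum and lipid droplets, fell by 0.27 on the log2 scale (adjusted p = 0.00016).

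Rab6a and Rab6b, Rabs of retrograde transport through the Golgi, moved in opposite directions. Rab6a stood at 1407, 1385 and 1288 normalized reads in WT and at 966, 999 and 980.2 in A20KO, with every A20KO library below every WT library (log2 difference -0.47, SE 0.0558, adjusted p = 1.1e-10). Rab6b, the form known mainly from neurons, stood at 34.0, 35.3 and 48.2 in WT and at 79.0, 60.6 and 84.0 in A20KO, again without overlap (log2 difference 0.92, SE 0.224, adjusted p = 0.00054). The Rab6a exons shared 19.0% of their bases with Mrpl48 on the opposite strand, whose log2 difference was 0.00 (adjusted p = 1).

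Rab39 showed the greatest fall (chr9:53684110-53706232, minus strand). It was listed with the Golgi Rabs, and its human counterpart RAB39A is also known from late endosomes and as a binder of caspase-1. It stood at 67.0, 88.6 and 97.5 normalized reads in WT and at 41.95, 40.1 and 38.9 in A20KO. The A20KO libraries lay close together, below the lowest WT library. The means were 84.4 ± 15.7 and 40.3 ± 1.55 (SD, n = 3 each; log2 difference -1.03, SE 0.213, adjusted p = 4.8e-05). Rab34, a Golgi Rab that positions lysosomes, fell from 716, 756 and 793 to 532, 514 and 503 (log2 difference -0.55, adjusted p = 1.5e-09).

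The remaining Golgi Rabs did not pass. Rab29, the Rab that recruits the kinase LRRK2, had a log2 difference of 0.23 (adjusted p = 0.14, no overlap). Rab33b, which binds the autophagy protein Atg16L1, had one of -0.25 (adjusted p = 0.13), and without A20KO replicate 3 its adjusted p was 0.034. Rab2b and Rab43 were near the level threshold and had intervals from -0.77 to 0.54 and from -0.66 to 0.61. They are uncertain also because 64.0% and 75.4% of their exon bases overlap other annotated genes.

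Outside these routes Rab40c, a Rab with a SOCS box that joins ubiquitin ligase complexes, rose. It was the highest of its group per kilobase (chr17:25882114-25919727, minus strand) and stood at 283, 292 and 323 in WT and at 424, 472 and 438 in A20KO. The genotypes did not overlap, with means of 299 ± 20.9 and 445 ± 24.7 (SD, n = 3 each; log2 difference 0.57, SE 0.0903, adjusted p = 2.6e-07). Rab23, which restrains Hedgehog signalling, and Rab28, a Rab of cilia, had log2 differences of 0.24 and -0.18 (adjusted p = 0.073 for both). Both passed without A20KO replicate 3 (0.03 and 0.033), and Rab28 also without WT replicate 2 (0.048). Rab19 had a log2 difference of 0.36 (adjusted p = 0.32). Of the genes that share only the name, Rab5if had a log2 difference of 0.14 (adjusted p = 0.043) with overlapping genotypes, and missed the threshold once WT replicate 1 (0.084) or 2 (0.26) or A20KO replicate 1 (0.27) was left out and with the replicate block (0.056). Rab3ip had a log2 difference of -0.26 (adjusted p = 0.08), and without WT replicate 3 its adjusted p was 0.04.

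**Figure D3:**
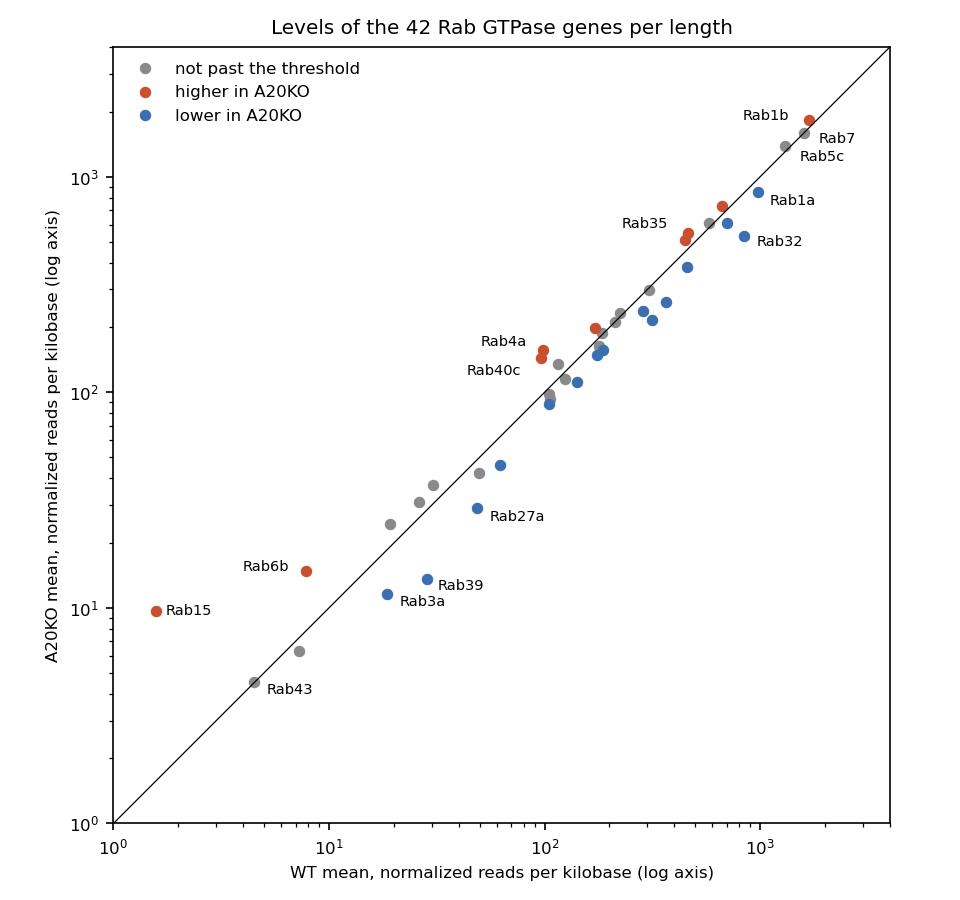
Mean normalized read count per kilobase of the 42 Rab GTPase genes in WT (horizontal log axis) against A20KO (vertical log axis), 3 libraries each, coloured by the test, with the line of equal levels. Rab1b, Rab7 and Rab5c lie at the top close to the line, Rab32 lies below it at 839 in WT and 529.9 in A20KO, and Rab15 lies farthest above it at 1.57 and 9.66.

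Divided by gene length, the levels were led by Rabs of the main routes. Rab1b held 13.2% of the summed level per kilobase of the 42 Rab GTPases, Rab7 held 12.04% and Rab5c 10.1%, and with Rab1a (6.82%), Rab2a (5.25%) and Rab32 (5.14%) they made up 52.6%. In WT, Rab1b (1695 ± 65.1 per kilobase) and Rab7 (1606 ± 55.1) lay closer together than in A20KO, where they stood at 1833 ± 36.7 and 1603 ± 30.2 (SD, n = 3 each). Rab32 was above Rab8b per kilobase in WT (839 ± 11.0 against 699.7 ± 32.8) and below it in A20KO (529.9 ± 16.0 against 609.7 ± 1.92). Of the 41 pairs of neighbours in the order, 7 had overlapping libraries in both genotypes, namely Rab35 with Rab31, Rab5b with Rab9, Rab9 with Rab12, Rab20 with Rab29, Rab24 with Rab28, Rab28 with Rab22a and Rab13 with Rab23. A further 16 pairs overlapped in 1 genotype and 18 in neither. Rab4a lay below Rab20 in WT (98.4 ± 6.93 against 142 ± 22.02 per kilobase) and above it in A20KO (157 ± 7.96 against 112 ± 14.3), with no overlap of libraries in either genotype. Summed per kilobase, the 5 lysosomal Rabs went from 2915 ± 44.6 to 2583 ± 21.4, of which Rab32 alone went from 839 to 529.9 while the other 4 did not pass. The 9 early endosome Rabs went from 2928 ± 66.1 to 3034 ± 64.3, the 12 of the early secretory route and Golgi from 4687 ± 13.9 to 4488 ± 16.4, the 7 secretory Rabs from 1727 ± 48.1 to 1580 ± 12.2 and the 5 recycling Rabs from 1034 ± 37.2 to 1142 ± 26.3. The 42 together went from 13538 ± 22.2 to 13119 ± 88.8. These sums are given without a test.

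**Figure D4:**
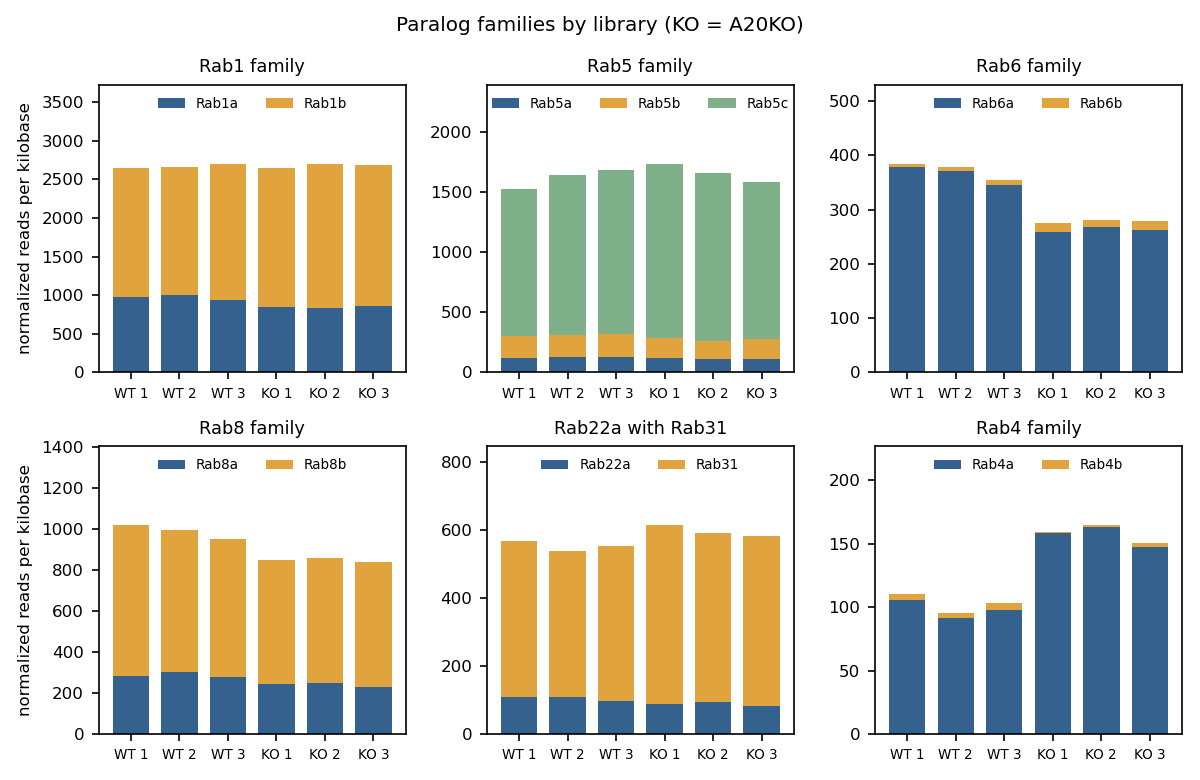
Normalized read count per kilobase of the paralogs of 6 Rab families, stacked, in each WT and A20KO (KO) library. The Rab1 stacks keep their height with less Rab1a in A20KO, the Rab6 and Rab8 stacks are lower in every A20KO library, and the Rab4 stacks are higher.

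In the Rab1, Rab6 and Rab22a families paralogs moved in opposite directions. Summed per kilobase, Rab1a and Rab1b gave 2669 ± 30.4 in WT and 2679 ± 24.5 in A20KO, while the Rab1a share went from 36.5% ± 1.77 to 31.6% ± 0.790 (SD, n = 3 each). Rab5 gave 1616 ± 82.9 and 1657 ± 75.4, with Rab5c going from 80.7% to 83.6% of it. In the Rab6 family the sum went from 373 ± 15.5 to 278 ± 2.88, and Rab6b was a small part of it, at 2.10% ± 0.520 in WT and 5.33% ± 0.898 in A20KO. Rab8 went from 986 ± 35.3 to 848 ± 10.01 with overlapping shares of Rab8a and Rab8b, Rab3 from 80.9 ± 3.81 to 57.6 ± 5.98, and Rab4 from 103 ± 7.69 to 158 ± 7.20. Rab7 with Rab7b gave 1791 ± 54.8 and 1792 ± 25.8.

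The regulators of the Rab cycle were read from lists of textbook members. Of 36 exchange factors tested 10 rose, 13 fell and 13 did not pass (median log2 difference -0.02), so that 63.9% passed, beside 39.8% of all genes tested and 54.1% of those with a mean of at least 20. Without those on chromosome 15, 8 rose, 12 fell and 13 did not pass (60.6% past the threshold). Rab3il1, an exchange factor for Rab8, rose from 74.7, 88.6 and 104 normalized reads to 381, 456 and 394 (log2 difference 2.20, adjusted p = 1.4e-23), and Rin2, an exchange factor for Rab5, rose by 0.74 (adjusted p = 1.6e-16). Dennd2a, an exchange factor for Rab9, fell by 1.09 on the log2 scale (adjusted p = 5.4e-24), and Sbf2, a DENN-domain protein of the myotubularin family, by 0.61 (adjusted p = 1.7e-15).

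Grouped by the Rab they act on, a grouping made after values were seen, the exchange factors gave the following. Ric1 and Rgp1, which together activate RAB6A in human cells, fell by 0.49 (adjusted p = 5.1e-11) and 0.28 (adjusted p = 0.00085) on the log2 scale, beside the fall of Rab6a by 0.47. Of the pair that activates Rab32, Hps4 fell by 0.38 (adjusted p = 0.00026) and Hps1 had a log2 difference of 0.01 (adjusted p = 0.92). Ankrd27, which binds Rab32 and activates Rab21, fell by 0.23 (adjusted p = 0.00069). For Rab7, Mon1a and Ccz1 had log2 differences of 0.00 (adjusted p = 0.99) and 0.01 (adjusted p = 0.91), while Mon1b rose by 0.19 (adjusted p = 0.031).

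For Rab5, Rabgef1 and Rin3 fell by 0.40 (adjusted p = 1.6e-05) and 0.73 (adjusted p = 2.2e-13). Rin1 and Rin2 rose by 0.47 (adjusted p = 2.7e-05) and 0.74 (adjusted p = 1.6e-16), and Gapvd1 had a log2 difference of -0.02 (adjusted p = 0.72). For Rab8, Rab3il1 rose by 2.20 (adjusted p = 1.4e-23) where Rab8a and Rab8b were lower, and Rab3ip had a log2 difference of -0.26 (adjusted p = 0.08). For Rab10, which itself did not pass, Dennd4a fell by 0.39 (adjusted p = 1.9e-09) and Dennd4c by 0.44 (adjusted p = 1.2e-11), and Dennd4b had a log2 difference of -0.10 (adjusted p = 0.12). Madd, which activates Rab3 and Rab27, rose by 0.40 (adjusted p = 2.7e-09) where Rab27a, Rab3a and Rab3d were lower. The Rab35 exchange factors Dennd1a, Dennd1b and Dennd1c did not pass, with log2 differences of 0.02, 0.04 and 0.07. Rab3gap1, part of the Rab18 exchange factor, rose by 0.17 (adjusted p = 0.021) where Rab18 was lower, and Rab3gap2 did not pass. Dennd3, which activates Rab12 and lies on chromosome 15, fell by 0.35 (adjusted p = 0.02) on the log2 scale, beside the fall of Rab12. The call of Rab12 ended in 4 of 18 alternative analyses. In the authors' deposited results neither Dennd3 (adjusted p = 0.07) nor Rab12 (adjusted p = 0.061) passed.

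**Figure D5:**
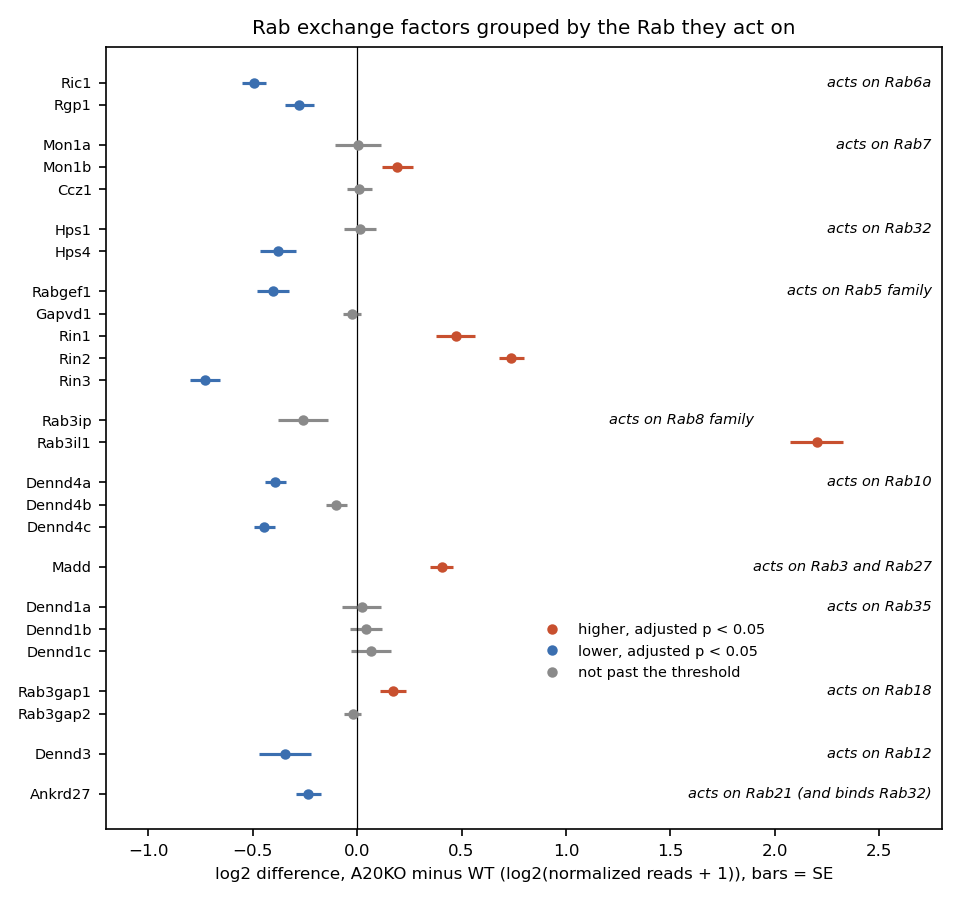
Log2 difference between A20KO and WT (A20KO minus WT, on log2 of the normalized read count plus 1) of exchange factors grouped by the Rab they act on, with points coloured by the test and bars of 1 SE. Ric1 and Rgp1 lie to the left of 0, Rab3il1 lies far to the right at 2.20, and the Rab35 exchange factors lie around 0.

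Of 31 TBC-family GTPase-activating proteins tested 9 rose, 15 fell and 7 missed the threshold. The share that passed was 77.4%, beside 39.8% of all genes tested and 54.1% of those with a mean of at least 20, and the share that fell was 48.4%, beside 19.6% and 27.5%. Their median log2 difference was -0.24, beside 0.01 over all genes tested. Tbc1d5, which acts on Rab7 with the retromer, rose by 0.57 (adjusted p = 6e-09), and Tbc1d22a rose by 0.88 (adjusted p = 1.4e-17). Tbc1d22a lies on chromosome 15, where 355 of 662 genes tested rose and 47 fell, with a median log2 difference of 0.38 beside 0.00 elsewhere. Sgsm1 and Tbc1d10b fell by 0.84 (adjusted p = 2.5e-16) and 0.53 (adjusted p = 1.9e-12) on the log2 scale. Outside chromosome 15, 7 rose, 15 fell and 7 did not pass.

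Of the 8 genes of Rab recycling and prenylation 1 rose, 3 fell and 4 did not pass (50% past the threshold, median -0.02), beside the same 39.8% and 54.1%. Gdi2, a GDP dissociation inhibitor that takes Rabs off membranes, had a log2 difference of 0.05 (adjusted p = 0.3). The subunits of the Rab prenyl transferase moved apart: Rabggta fell by 0.23 (adjusted p = 0.0072) and Rabggtb rose by 0.17 (adjusted p = 0.0081). Of 30 effectors tested 6 rose, 8 fell and 16 did not pass (median 0.04), and the 46.7% past the threshold lay between the 39.8% of all genes and the 54.1% of those with a mean of at least 20. Without those on chromosome 15, 6 rose, 6 fell and 16 did not pass (42.9% past the threshold). Rilpl2, which binds phosphorylated Rab8 and Rab10, fell by 0.98 (adjusted p = 1.1e-26), and Rab11fip1, which binds Rab11, fell by 1.59 (adjusted p = 1.1e-25). Plekhm1, which joins Rab7 to the HOPS tether, rose by 0.42 (adjusted p = 6.7e-13), and Rab11fip5 rose by 0.56 (adjusted p = 6.6e-07). Of 8 subunits of the HOPS and CORVET tethers Vps33a rose by 0.16 (adjusted p = 0.0055), Vps39 fell by 0.19 (adjusted p = 0.00081) and Vps11 fell by 0.14 (adjusted p = 0.02), while 5 did not pass (37.5% past the threshold).

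In the authors' deposited table, 20 of the 44 Rab genes had an adjusted p under 0.05, and all 20 passed here in the same direction. A further 5 genes passed here and not in the authors' deposited table. With limma run without the variance trend, 16 of the 44 genes passed, 5 higher and 11 lower, in place of 25.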

How the data were processed

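For 3 WT and 3 A20KO libraries of iBMDM, RNA was taken up in Trizol and libraries were made with the SMARTer mRNA-seq kit that the labels' protocols name. Reads were placed on mm10, per the submitters' processing notes. Neither the aligner nor the read counter, annotation or strand setting is given in the sources used here. The authors deposited a normalized signal for each gene and library without a division by length. Every value (100%) was a whole multiple of the value of 1 read (0.953 to 1.05) within a tolerance of 0.001 reads, so whole reads were recovered for the count tests. The authors also deposited log2 fold changes and adjusted p-values, per the file headers.

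The test scale was log2 of the normalized read count plus 1, so fold changes of low genes are understated. Genes that averaged 1 or more were tested with limma 3.58.1 (R 4.3.3, empirical Bayes with a variance trend and the robust setting), with Benjamini-Hochberg adjustment over 17376 genes and a threshold of 0.05. The procedure was tested on simulated data. Alternatives changed the pseudocount, filter, scaling, variance trend, block and libraries, and ran edgeR 4.0.16, DESeq2 1.42.0 and limma-voom on recovered reads. Libraries of a group differed by more than sampling noise (chi-square per degree of freedom 2.67 to 3.60), so each counts once. Levels between genes are per kilobase of the deposited gene length. Sharing of sequence was measured as the share of 31-base words of the exons found in other genes.

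The Rab genes and all lists were chosen with earlier results of these data known. The rule for naming gave full statistics for Rab genes past the threshold with at least a 2-fold change and for the highest per kilobase of each place of action, and of each list of regulators the 2 genes per direction with the smallest adjusted p. Other Rab genes and the exchange factors grouped by their Rab were added after values were seen. Some single genes of these lists are not reported here. Tables and figures were made with Python 3.11.15, pandas 2.3.3, numpy 2.4.6 and matplotlib 3.10.9.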

Additional observations from a re-analysis of the deposited data

How the results depend on the processing

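No Rab gene changed direction among those past the threshold under any of 18 alternatives, and 15 of the 25 Rab genes past it kept the call in each. Of 792 values over genes and alternatives, 744 stayed on the same side of the threshold, 39 lost the call and 9 gained one. For genes not past it the sign was not always kept, as for Rab11a without WT replicate 1 (-0.00, beside 0.06 in the main fit). Without the variance trend in limma 16 Rab genes passed (25 with it), and the cause was not tested; the 9 calls lost there were Rab11b (0.088), Rab12 (0.088), Rab1b (0.19), Rab20 (0.19), Rab22a (0.081), Rab2a (0.13), Rab31 (0.068), Rab5if (0.24) and Rab8b (0.054). DESeq2 lost Rab12 (0.058), Rab20 (0.12), Rab3a (0.14) and Rab5if (0.11). Rab3a also missed the threshold with no filter (0.057) and with centring on genes outside chromosome 15 (0.051), and Rab5if with a pseudocount of 0.1 (0.054). Leaving out 1 library gave 21 to 28 Rab genes and 6214 to 6515 genes in all, beside 6917 with all libraries. Counts by edgeR (25), DESeq2 (21), limma-voom (25), quantile normalization (26) and other pseudocounts and filters (24 to 25) were within 1.5 times. The replicate number as a block left 23 Rab genes and 6729 genes in all and ended 2 calls, Rab3a and Rab5if. Libraries of the same number did not deviate together (correlations -0.028, -0.016 and -0.047 over 11431 genes). These deviations from means of 3 libraries gave no sign of a pairing by number, but cannot show that libraries of a number were prepared apart. Below about 50 normalized reads the intervals of single genes were wide, as for Rab2b and Rab43.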
